A study of Mus musculus with 2 samples.

Results

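Translation initiation and elongation factors were compared between Miz-1 knockout and wild-type thymocytes. The members were all genes with an annotated symbol beginning Eif1 to Eif6, Eef1 or Eef2, with the release factor genes Etf1, Gspt1 and Gspt2. The sex-linked Eif2s3x and Eif2s3y and the interferon-induced kinase gene Eif2ak2 were left out. This gave 58 genes, read by 161 probe sets, of 18193 genes named on the array. RNA came from DN3 thymocytes, immature T cell precursors sorted as lineage-negative, CD44-negative and CD25-positive cells, of mice of the C57BL/6 background. One group was labelled as Miz1 knockout and stands in the design text as Miz1-delta-POZ. The name denotes an allele of Zbtb17, the gene of Miz-1, that lacks the POZ domain. The other group was labelled wild type. No age, sex, number of pooled animals or driver of the deletion is stated for either group in the sources used here. There was 1 array for each genotype, so no difference below has an error between animals, no test of genotype was possible, and sizes are descriptions of these 2 arrays.

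Protein synthesis starts when the initiator tRNA, carried by eIF2, is placed on the small ribosomal subunit with the help of eIF1, eIF1A, eIF3 and eIF5, and when the eIF4F complex brings the capped end of an mRNA to it. Elongation then runs on eEF1A, which delivers aminoacyl-tRNA, and on eEF2, which moves the ribosome along the message, until the release factors end the chain. Most of these genes are expressed in every cell. Thymocytes that pass the pre-T cell receptor checkpoint grow and divide rapidly, which calls for much protein synthesis, and MYC, a known partner of Miz-1, is a known activator of many translation genes.

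Signals are intensities in arbitrary units. Values under 394 (the median signal over both arrays, controls left out) were raised to that floor, and the ratio is given as log2 of knockout over wild type. Where a value was raised, the ratio is a lower bound on the size of the difference. Among members this also holds for dim probe sets of Eif2ak1 (0.82), Eif4e (-1.29), Eif4e2 (1.27), Eif4g2 (0.71) and Eef1d (0.91). Among genes outside the members it holds for dim probe sets of Ddit3 (0.96), Paip1 (0.78), Dohh (0.15) and Eif2ak2 (0.22). A gene was read by its probe set of highest mean signal and called measured where that mean exceeded the floor. Of the 58 genes, 54 were measured. The other 4 were Eif4a3, Gspt2 and the methyltransferase genes Eef1aknmt and Eef2kmt, and no fold is given for them.

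All 9 listed DN3 markers were above the floor on both arrays, and 2 of them passed 2-fold upward: Il2ra, which encodes the sort marker CD25, read 23018 against 4992 (log2 ratio 2.21), and Dtx1, a Notch target, 14456 against 2841 (2.35). Of 4 genes outside the gate, Cd4 and Cd44 had means below the floor, while Cd8a (541 and 497) and Kit (825 and 749) were above it on both arrays. Zbtb17, the targeted gene, read 1361 on the knockout array against 3042, 2.23-fold lower, by a probe set whose place relative to the deleted part is not known here. The animals differed in sex markers. The knockout array read 55300.0 for Xist, a female-specific RNA, and 36.7 for the Y-linked Kdm5d, where the wild-type array had 423 and 1782. Sex and genotype cannot be told apart here. Of 9 proliferation markers with a probe set, 8 were at least 2-fold lower in the knockout, with a summed signal of 43519 against 111798. Among 8 myeloid markers 2 were measured, Lyz2 and Csf1r, both at least 2-fold higher, and the list summed to 5664 against 2364, with Cd14 and Tyrobp above the floor on the knockout array only and Itgam, Cd68, Cebpa and Fcer1g below it on both. The summed signals of the other marker lists, knockout first, were 2032 and 1714 for 5 B cell markers, 5564 and 2749 for 4 NK and innate lymphoid markers, 782 and 1198 for 3 erythroid markers and 6883 and 4237 for 6 thymic stromal markers. In sorted bulk cells, fewer cells of a type and less RNA per cell cannot be told apart. The part of sex, proliferation, the CD25 difference and other cells in the results below was not tested.

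Translation factor transcripts were mostly somewhat lower in the knockout, and few differed by much. Of the 54 measured genes, 44 (81.5%) had a log2 ratio below 0, against 50.0% of the 10770 genes measured. Their median was -0.39, with quartiles of -0.65 and -0.13, and the median over all measured genes was 0.00, with quartiles of -0.44 and 0.45. At the 2-fold size 3 genes (5.56%) were lower, Eif4ebp1, Eif3e and Eif1ax, and 5.65% of all measured genes were, so the share of members past 2-fold was near the background. No member was 2-fold higher, against 7.23% of all measured genes. Over all measured genes 608 were 2-fold lower and 779 higher, a split that became 927 and 566 after median centring. At 1.5-fold 17 members (31.5%) were lower and 2, Eif2ak1 and Eif4g3, higher, where 17.9% and 19.2% of all measured genes were. The number of members below 0 was 49 after median centring, 39 after quantile and 38 after loess normalization, with 59.6%, 52.5% and 51.8% of all measured genes below 0. Median centring moved the median of all measured genes to -0.16 and that of the factors to -0.55.

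**Figure D1:**
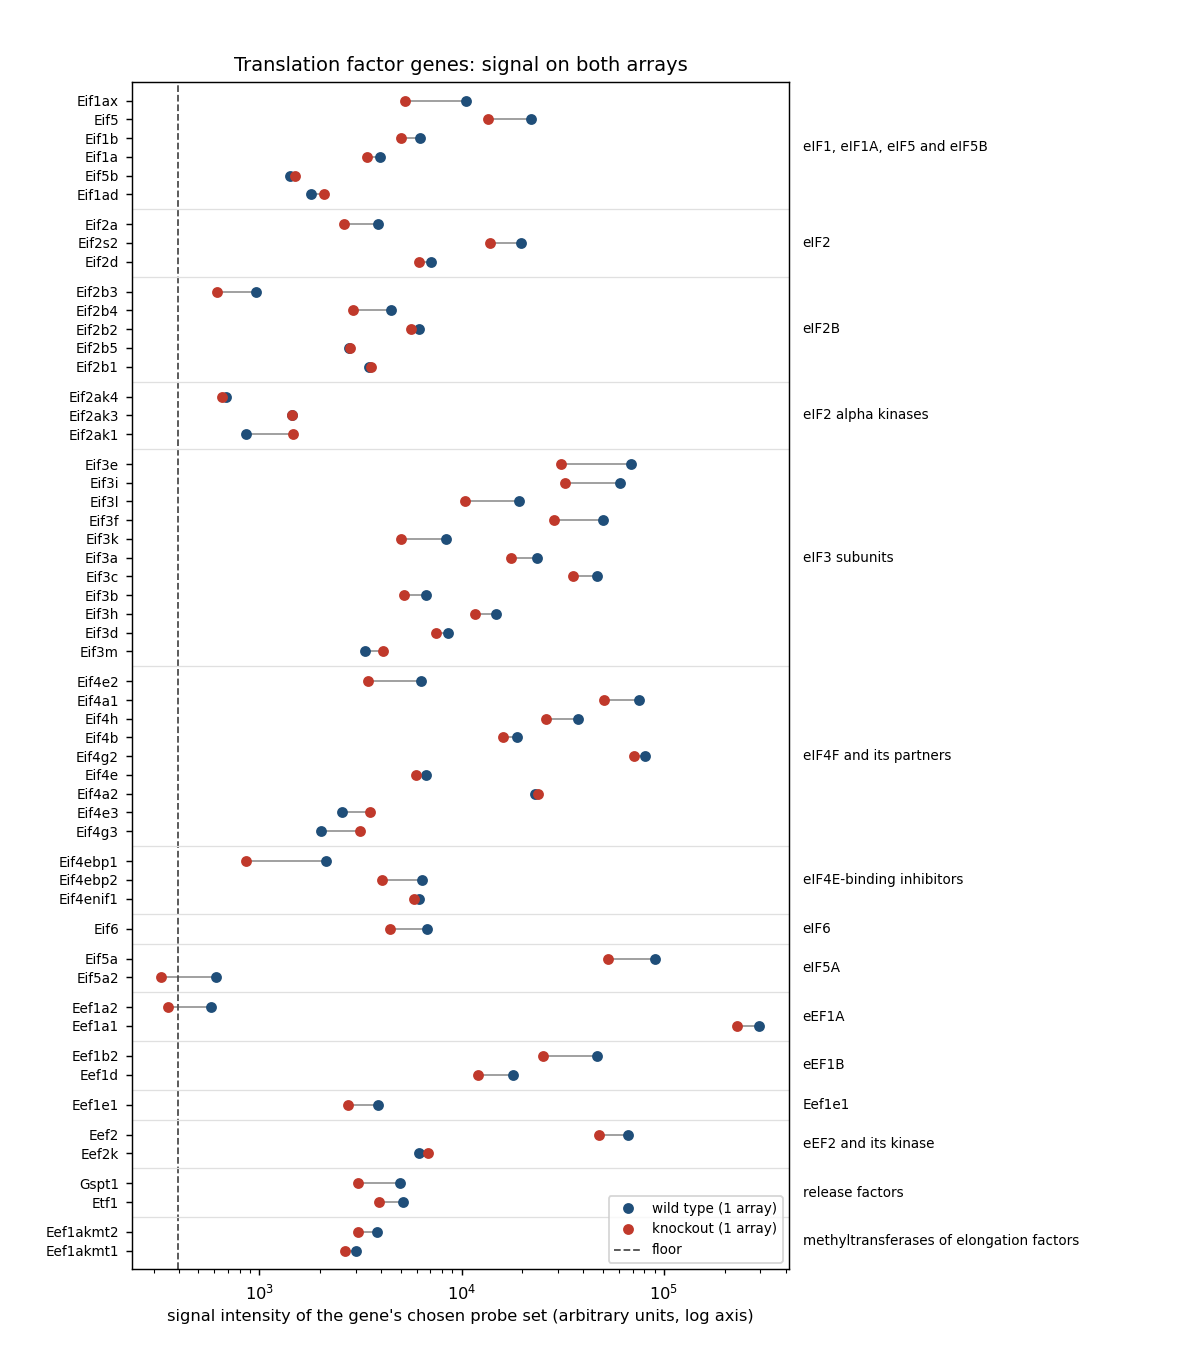
Signal intensity of the chosen probe set of each of the 54 measured translation factor genes on the knockout array (red) and the wild-type array (blue), on a log axis, grouped by role; the dashed line is the floor of 394 and each point is 1 array. In these deposited values the red point lies left of the blue one for 44 genes (38 to 49 under other scalings), and the gap is widest for Eif4ebp1, with 855 against 2148.

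The spread between probe sets of a single gene was as large as most of these differences. Its root mean square SD was 0.57 over 4514 genes with several measured probe sets, and 0.59 over the 34 such members. Of these 34, 13 had every measured probe set below 0, 5 had every one above 0 and 16 had both signs. The 74 measured probe sets that were not chosen had a median of -0.09, with 42 below 0, 4 at least 2-fold lower and 6 at least 2-fold higher. Their median mean signal was 1675, against 5896 for the chosen ones. A member's direction therefore often depended on the probe set that read it.

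**Figure D2:**
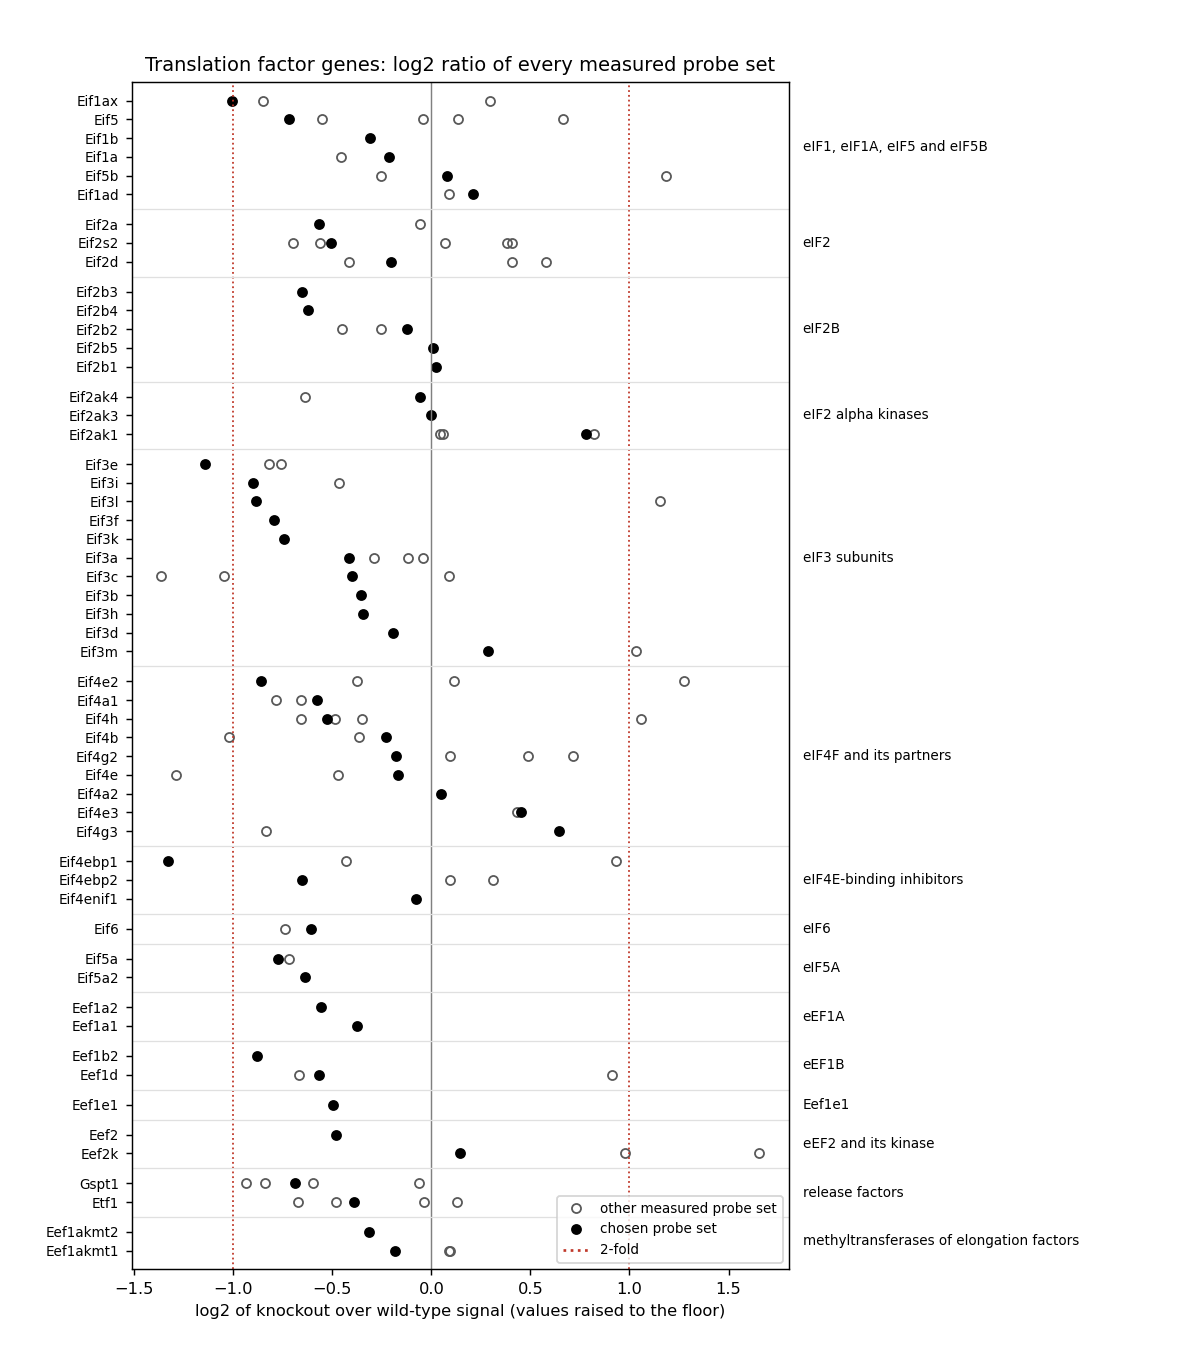
Log2 ratio of knockout over wild type for each measured probe set of the 54 measured genes, grouped by role; filled points are the chosen probe sets, open points the other measured ones, and dotted lines mark 2-fold. In these deposited values Eif3e, Gspt1 and Eif6 have all points left of 0, whereas Eif4ebp1 spans -1.33 to 0.93.

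The ratio also followed signal over the whole array. Among other measured genes the median log2 ratio was 0.11 below a mean signal of 1000, -0.01 between 1000 and 10000 and -0.39 above 10000, where 74.3% of 689 genes lay below 0. In the same ranges the factors had medians of -0.60 (4 genes), -0.20 (31 genes) and -0.53 (19 genes, 18 below 0). Quantile and loess normalization, which take out such a trend, gave the factors a median of -0.19 each, against -0.04 and -0.03 for all measured genes. Of the 54 genes, 36 were below 0 and 5 above 0 in the deposited values and under all 3 other scalings. The 5 were Eif1ad, Eif2ak1, Eif3m, Eif4e3 and Eif4g3. As a sign of RNA integrity, the 3' over 5' signal ratio was 0.645 (knockout) and 0.641 (wild type) by the Gapdh probe sets, and 1.60 (knockout) and 2.06 (wild type) by those of beta-actin.

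**Figure D3:**
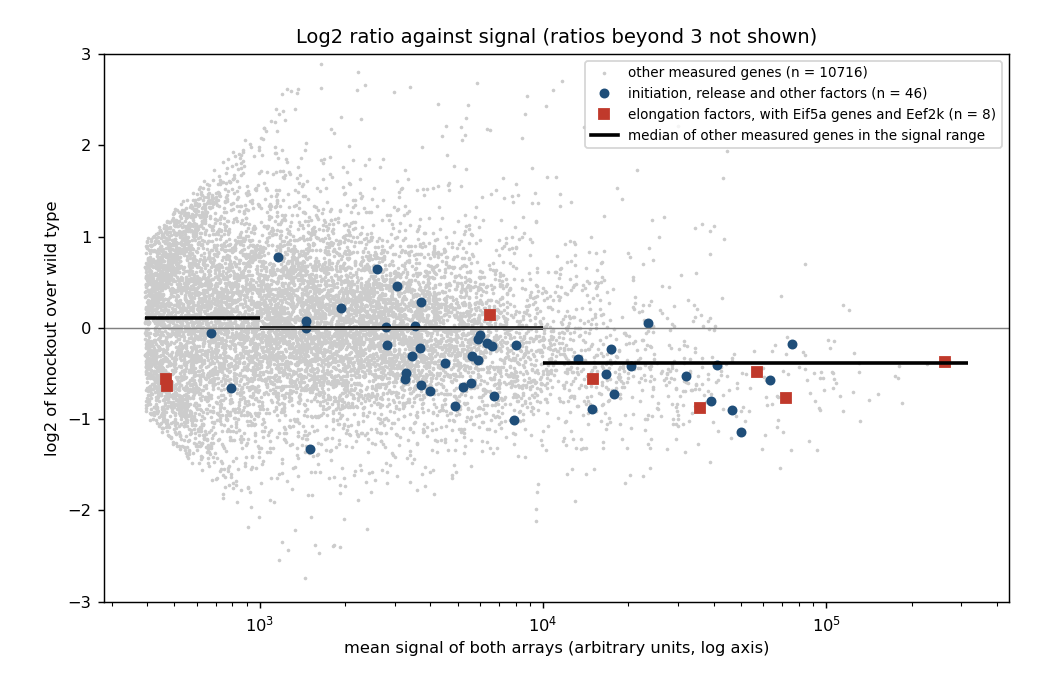
Log2 ratio of knockout over wild type against the mean signal of both arrays (log axis) for other measured genes (grey), initiation, release and other factors (blue) and elongation factors with Eif5a genes and Eef2k (red); black bars are the medians of the other measured genes in 3 signal ranges. The bar lies at -0.39 above a signal of 10000, and 18 of the 19 factors there are below 0.

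The first factors on the small subunit, eIF1, eIF1A, eIF5 and eIF5B, help to find the start codon and to join the subunits. Of 6 measured genes of this group 4 were below 0, where 50.0% of all measured genes were, and their median was -0.26. Eif1ax, the X-linked gene for eIF1A, read 5240.4 on the knockout array against 10541 on the other, 2.01-fold lower. Another probe set read 797 and 1434, or -0.85 on the log2 scale, and a dim probe set near the floor read 546 and 444, or 0.30. After quantile or loess normalization Eif1ax was under 2-fold, and -0.84 was its highest ratio over the 4 scalings. The autosomal copy Eif1a read 3416 and 3967, a log2 ratio of -0.22, by a probe set that can share signal between related transcripts. Eif1b, a paralog of the start codon factor eIF1, had a ratio of -0.31. Eif5, which activates GTP hydrolysis by eIF2, read 13432 and 22120.2 by its chosen probe set, a log2 ratio of -0.72. Its other 4 measured probe sets gave -0.55, -0.04, 0.14 and 0.66, so its probe sets had no common direction. Eif5b, the GTPase of subunit joining, read 1498 and 1418, or 0.08, with further probe sets at -0.26 and 1.19. Eif1ad, a relative of eIF1A, had the highest ratio of the group, 0.21.

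The eIF2 group brings the initiator tRNA. Eif2s2, the beta subunit of eIF2, read 13792 and 19572, a log2 ratio of -0.50. Of its 6 measured probe sets the 3 of highest signal gave -0.50, -0.56 and -0.70 and the other 3 gave 0.07, 0.41 and 0.38. Eif2a and Eif2d, which encode separate factors able to bring tRNA to the ribosome, had ratios of -0.57 and -0.20. A second Eif2a probe set gave -0.06, and Eif2d probe sets ranged from -0.41 to 0.58. The median of these 3 genes was -0.50 and turned to 0.12 with the mean of probe sets. That mean takes in probe sets not called measured, among them an Eif2a one read at 508 and 56. Eif2s1, the alpha subunit, had no probe set named to it alone and was not analysed here.

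Subunits of eIF2B, the exchange factor that recharges eIF2 with GTP, had unlike ratios. Eif2b3 read 615 and 968, a log2 ratio of -0.65, and Eif2b4 read 2921 and 4496, or -0.62. Eif2b1 (3554 and 3496) and Eif2b5 (2793 and 2782) had ratios of 0.02 and 0.01, and Eif2b2 lay between, with -0.12 by its chosen probe set and -0.25 and -0.45 by its others. The median of -0.12 in the deposited values was 0.00 after loess normalization, and Eif2b1, Eif2b2 and Eif2b5 changed sign between scalings.

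The kinases that phosphorylate eIF2 and so slow initiation under stress did not move together. Eif2ak1, the haem-regulated kinase HRI, read 1469 against 855 in the wild type, 1.72-fold higher and the highest ratio of all members, 0.78. Its other measured probe sets gave 0.82, 0.04 and 0.06. Eif2ak3, the endoplasmic reticulum kinase PERK, read 1453 and 1456, or 0.00, and Eif2ak4, the amino acid sensor GCN2, 657 and 685, or -0.06, with a second probe set at -0.64. Of the 12 listed integrated stress response partners, all measured, 2 were at least 2-fold higher and 0 were 2-fold lower. Over all measured genes 7.23% were 2-fold higher and 5.65% lower. The median of the partners was 0.29 (0.14 to 0.31 under the other scalings). Ppp1r15a, which recruits the phosphatase for eIF2 and is itself induced by stress, read 1254 and 411, 3.05-fold higher. Atf5, a transcription factor of this response, read 919 and 360, at least 2.33-fold higher because the wild type lay under the floor. Atf4, the central factor of the response, read 6827 and 6740, a log2 ratio of 0.02, with another probe set at -0.32. Ddit3 had ratios of 0.39 and, with the wild type under the floor, at least 0.96.

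The eIF3 complex, the largest scaffold on the small subunit, was lower in nearly all measured subunits. Of 11 genes 10 were below 0 in the deposited values, with a median of -0.42 (-0.27 after quantile and -0.23 after loess normalization). Over all measured genes 50.0% were below 0. Several subunits, among them Eif3c, Eif3e and Eif3i, had mean signals above 10000, where 74.3% of other measured genes were below 0 and their median was -0.39. Eif3e read 31170.2 on the knockout array against 68765, 2.21-fold lower. Its other measured probe sets read 23965 and 42291, a log2 ratio of -0.82, and 22063 and 37295, or -0.76, so all 3 lay on the same side and only the first passed 2-fold. Only the last of them, at -0.76, is not of the kind that can share signal between transcripts. After quantile or loess normalization Eif3e was under 2-fold. Eif3i read 32388 and 60475, a ratio of -0.90 (-0.47 by its other probe set), Eif3l 10430.5 and 19250.0, or -0.88, and Eif3f 28682 and 49809, or -0.80. A second, dim Eif3l probe set read 876 and 142, a log2 ratio of at least 1.15 in the opposite direction because the wild type lay under the floor.

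Other subunits differed less. Eif3k had a ratio of -0.75, Eif3a -0.42, Eif3b -0.36, Eif3h -0.35 and Eif3d -0.19. Eif3a, the largest subunit, had all 4 of its measured probe sets between -0.42 and -0.04. Eif3c was read at 35463 and 46856 by its chosen probe set, a log2 ratio of -0.40, whereas 2 others gave -1.05 and -1.36 and the remaining one 0.09. After loess normalization Eif3c stood at 0.05. Eif3m was the sole subunit above 0: it read 4071 and 3335, a log2 ratio of 0.29, and its second probe set, 905 and 443, gave 1.03. Both Eif3m probe sets can share signal between transcripts. Without probe sets of shared sequence the median of the eIF3 subunits was -0.75.

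The cap-binding group, eIF4F with its partners, was split. Of 9 measured genes 6 were below 0 and 3 above, beside 50.0% of all measured genes below 0. Their median of -0.18 turned to 0.06 after quantile and 0.08 after loess normalization. The paralogous RNA helicases of the group differed: Eif4a1 read 50734 and 75628, a log2 ratio of -0.58, and Eif4a2 23886 and 23055, or 0.05. All 3 Eif4a1 probe sets lay between -0.78 and -0.58, although the chosen one stood at 0.02 after quantile normalization. Eif4e, the cap-binding protein that is limiting for many growth mRNAs, read 5955 and 6697, a ratio of -0.17, with further probe sets at -0.47 and -1.29. Eif4e2, a cap-binding paralog that acts as a repressor, read 3465 and 6289, or -0.86, and its 4 measured probe sets reached from -0.86 to 1.27. Eif4e3, a further cap-binding paralog, was higher by both probe sets, 3527 against 2575 and 3189 against 2365, with ratios of 0.45 and 0.43.

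Among the scaffolds, Eif4g3 read 3162 against 2021 in the wild type, 1.56-fold higher, while a dimmer probe set gave -0.84. Eif4g2, a scaffold that does not bind eIF4E, read 70831 and 80280.0, a ratio of -0.18, and its other measured probe sets gave 0.10, 0.49 and 0.71. Eif4g1 had no probe set named to it alone and was not analysed here. The helicase cofactors Eif4b and Eif4h had ratios of -0.23 and -0.53. For Eif4b the 3 probe sets were all below 0, down to -1.02. For Eif4h 4 of 5 were below 0, and the remaining one read 2915 and 1401, a log2 ratio of 1.06.

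Inhibitors that sequester eIF4E were below 0 by their chosen probe sets. Eif4ebp1, the mTOR-controlled repressor 4E-BP1, read 855 and 2148, 2.51-fold lower and the lowest ratio of all members. It was the only member past 2-fold in the deposited values and under all 3 other scalings. The probe sets disagreed, however: a second read 656 and 884, or -0.43 on the log2 scale, and another 881 and 461, or 0.93. The chosen probe set can share signal between transcripts, and without such probe sets the ratio was -0.43. Eif4ebp2 read 4048 and 6362, or -0.65, with 2 other measured probe sets at 0.09 and 0.31. Eif4enif1, which carries eIF4E into the nucleus, had a ratio of -0.08. Eif6, which keeps the large subunit from joining too early, read 4406 and 6720, a log2 ratio of -0.61, and its second probe set gave -0.74.

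Of 8 measured elongation factor genes, Eif5a genes and Eef2k included, 7 lay below 0 in the deposited values. However, Eef1a1, Eef2 and Eef2k changed sign between scalings. The share below 0 was 50.0% over all measured genes. Eef1a1, Eef1b2, Eef1d, Eef2 and Eif5a had mean signals above 10000, where 74.3% of other measured genes were below 0. Eef1a1 read 229129 on the knockout array against 296909, a log2 ratio of -0.37, and stood at 0.38 after loess normalization. Eef1a2, the paralog of muscle and neurons, read 354 and 579, at least 1.47-fold lower with the knockout under the floor. Both measured subunits of the exchange factor of eEF1A were below 0: Eef1b2 read 25291 and 46616, 1.84-fold lower, and Eef1d 12119 and 17938.5, or -0.57. Eef1d had another probe set at -0.67 and a dim one at 0.91. Their chosen probe sets had a negative ratio under each scaling, at most -0.46 for Eef1b2 and -0.28 for Eef1d. Eef1e1, named as an elongation factor but known as an auxiliary protein of the multi-tRNA synthetase complex, read 2730.1 and 3848, or -0.50.

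Eef2 read 47592.5 and 66366, a log2 ratio of -0.48, and 0.06 was its highest ratio over the 4 scalings. Eef2k, the kinase that inhibits eEF2, read 6817 and 6171, a ratio of 0.14. Its other probe sets read 3352.5 and 1701, a ratio of 0.98, and 1242 and 107, or at least 1.66 with the wild type under the floor. All 3 Eef2k probe sets thus lay on the higher side. After median centring the chosen one stood at -0.01. Eif5a, whose hypusine-modified protein helps ribosomes past stalling sequences, read 53103 and 90781, a log2 ratio of -0.77. Its other probe set read 7279 and 11992, or -0.72. Both Eif5a probe sets can share signal between transcripts. Eif5a2 read 328 and 614, at least 1.56-fold lower with the knockout under the floor.

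The release factors were lower by their chosen probe sets. Etf1, which reads stop codons, read 3913 and 5121, a log2 ratio of -0.39, with 5 measured probe sets between -0.67 and 0.13. Gspt1, its GTPase partner, read 3063 and 4941, or -0.69, and all 5 of its measured probe sets were below 0, from -0.94 to -0.06. Gspt2, an X-linked copy of Gspt1, was below the floor on both arrays. The methyltransferase genes Eef1akmt1 and Eef1akmt2, whose products modify eEF1A, had ratios of -0.19 and -0.31. Both other measured probe sets of Eef1akmt1 lay above 0, at 0.09 each.

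Other genes of the pathway gave a varied picture. The counts below stand beside 50.0% of all measured genes below 0, and 74.3% of other measured genes above a mean signal of 10000. Of 19 measured partners of the cap complex and of its control by mTOR, 10 were below 0, with a median of -0.06 that turned to 0.03 after quantile and 0.08 after loess normalization. Gigyf2, a partner of Eif4e2, was 2.40-fold higher (3136 against 1308), though its second measured probe set gave -0.06. Pabpc1, the poly(A)-binding protein, read 145057 and 211820.0, a ratio of -0.55, with a dimmer probe set at 0.13. Denr, which acts in re-initiation, read 3890.3 and 6906, or -0.83, and 436 and 872 by a dimmer probe set. In the other direction, Paip1 read 2682 and 1520, or 0.82, with a second measured probe set at 0.78, and Pdcd4 had a ratio of 0.48. In the list of 16 measured elongation, termination and recycling partners 10 were below 0, with a median of -0.37 (-0.53 to -0.30 under the other scalings). Dhps, the first enzyme of hypusine synthesis on eIF5A, read 1141 and 2673, 2.34-fold lower, and its second probe set gave -0.57. Dohh, the second enzyme, had a ratio of -0.58 and, by a dimmer probe set, 0.15, and Eefsec, the elongation factor for selenocysteine, -0.99, past 2-fold under the other scalings. Above 0 were, among others, Gtpbp1 at 0.58, with a dimmer probe set at -0.09, and Gtpbp2 at 0.41, with its other probe sets between 0.47 and 0.72. Of 8 measured mitochondrial translation factors 6 were below 0, with a median of -0.44 (-0.59 to -0.48 under the other scalings). By their chosen probe sets 0 passed 2-fold. Tufm had a ratio of -0.61, and its other measured probe sets gave -2.03 (618 and 2521) and 0.04. Of 9 other measured genes whose mRNAs carry a terminal oligopyrimidine tract, among them Fau, which encodes a ribosomal protein, 8 were below 0, with a median of -0.39 that turned to 0.14 after loess normalization. Npm1 was 2.36-fold and Nap1l1 2.33-fold lower in the deposited values, under 2-fold after quantile or loess normalization, and Vim was 4.17-fold higher, with other probe sets at 0.94 and 0.99.

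The nearest gene families were placed beside the factors without a test. For comparison, 50.0% of all measured genes were below 0, and 74.3% of other measured genes above a mean signal of 10000. Of 44 measured cytosolic ribosomal protein genes and close paralogs, Rpl22 left out, 41 were below 0, with a median of -0.48. Of 18 measured cytosolic aminoacyl-tRNA synthetase genes 16 were below 0, with a median of -0.50. The families parted under the scalings that remove a trend with signal. After loess normalization the median was 0.00 for the ribosomal proteins, -0.19 for the translation factors and -0.44 for the synthetases. Quantile normalization gave -0.06, -0.19 and -0.47 in the same order.

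**Figure D4:**
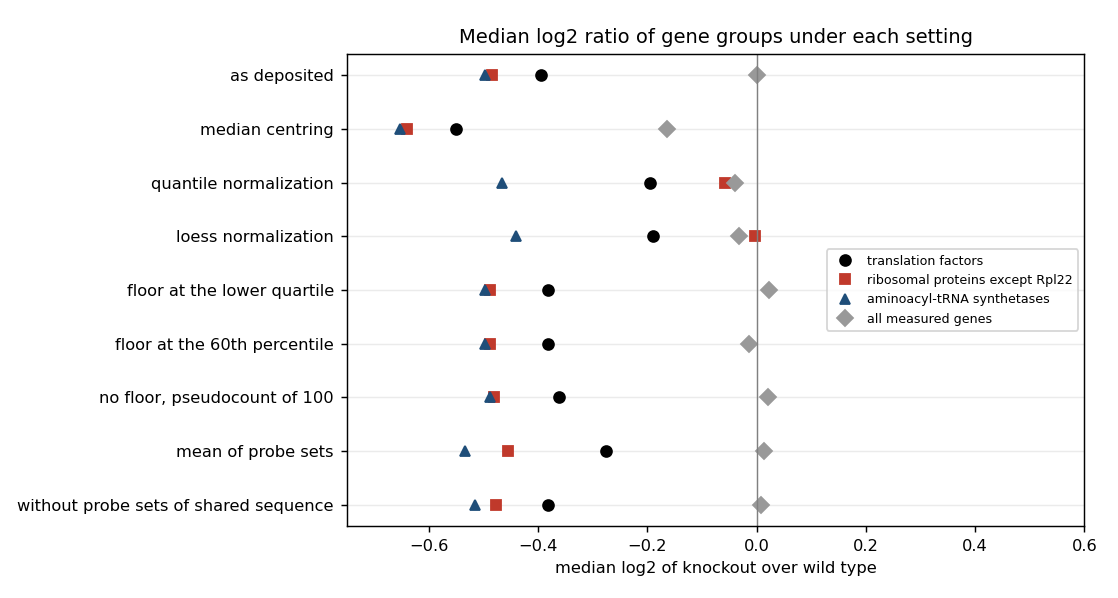
Median log2 ratio of knockout over wild type under the deposited scaling and 8 other settings for the translation factors (circles), ribosomal proteins except Rpl22 (squares), aminoacyl-tRNA synthetases (triangles) and all measured genes (diamonds). The circles stay between -0.55 and -0.19, while the squares move from -0.64 after median centring to 0.00 after loess normalization.

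The regions before the start sites were read from RefSeq, build GRCm38.p6, because the factors lay mostly on the same side. A window from 250 bases before to 50 bases after the start was held for 45 of the 58 genes, in 60 windows. CACGTG, the E-box to which MYC and MAX bind, reads the same on both strands and was present for 12 genes (26.7%), against 11.5% of 8739 measured genes and 8.09% of 27025 genes with a window. Counted by windows it was in 23.3% of those of the factors and in 7.15% of all 32851. Windows of a gene can overlap, so the same site can be counted again, as happened for an Eif5a E-box. The word holds the dinucleotide CG, of which the factor windows had a median of 24, those of measured genes 20 and all windows 7. By gene, GGGCGG, the GC box, was present for 75.6% of the factors, 67.4% of measured genes and 38.2% of all genes. CCAAT was present for 35.6%, 42.7% and 41.1%, and TATAAA for 6.67%, 8.99% and 15.7%. Both strands were searched, and matches were counted for each motif alone even where they share bases. A match of letters does not show binding.

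Of 42 measured members with a window, the 11 with an E-box had a median log2 ratio of -0.53, with 10 below 0, and the 31 without one -0.31, with 23 below 0. No test was made of this difference, which is in the deposited values and was not computed under the other scalings. Of the holders, Eef2, Eif3a, Eif3f, Eif4a1, Eif4h and Eif5a had mean signals above 10000, where other measured genes had a median of -0.39. Eef2 and Eif4a1 reached 0.06 and 0.02 at their highest over the 4 scalings, and the other holders below 0 stayed below 0 under these scalings. The chosen probe sets of Eif4h and Eif5a can share signal between transcripts. Without such probe sets Eif4h stood at 1.06, and Eif5a had no probe set left. The 120 bases before the start are shown for the 5 genes of lowest ratio that hold the E-box in that stretch and were above the floor on both arrays, and for Eef2k, the 1 holder above 0, in order of their ratio, with the E-box in capitals and each read on the strand of its gene.
Eif3f (ratio -0.80, chr7:108934295-108934414, plus strand): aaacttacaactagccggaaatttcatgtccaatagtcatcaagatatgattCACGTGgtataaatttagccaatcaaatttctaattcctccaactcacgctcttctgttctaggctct
Eif5a (ratio -0.77, chr11:69921387-69921506, minus strand): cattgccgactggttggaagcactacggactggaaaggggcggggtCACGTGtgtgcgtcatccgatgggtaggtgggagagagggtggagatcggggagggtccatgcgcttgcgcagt
Eif3k (ratio -0.75, chr7:28981889-28982008, minus strand): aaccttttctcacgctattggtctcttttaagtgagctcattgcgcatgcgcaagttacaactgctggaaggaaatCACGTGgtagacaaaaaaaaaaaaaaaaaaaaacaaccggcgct
Eif4h (ratio -0.53, chr5:134639410-134639529, minus strand): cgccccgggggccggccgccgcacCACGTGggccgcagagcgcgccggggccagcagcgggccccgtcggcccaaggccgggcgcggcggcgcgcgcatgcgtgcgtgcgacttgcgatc
Eef2 (ratio -0.48, chr10:81176511-81176630, plus strand): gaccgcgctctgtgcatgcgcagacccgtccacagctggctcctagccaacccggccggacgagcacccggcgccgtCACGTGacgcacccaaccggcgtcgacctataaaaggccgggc
Eef2k (ratio 0.14, chr7:120842711-120842830, plus strand): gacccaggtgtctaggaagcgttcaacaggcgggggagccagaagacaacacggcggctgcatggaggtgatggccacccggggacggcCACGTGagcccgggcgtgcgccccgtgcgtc

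In these 6 stretches the E-box begins 68, 74, 44, 96, 43 and 31 bases before the start, from Eif3f to Eef2k. Eif3f and Eef2 also hold TATAAA within the stretch shown. Eif5a has several annotated starts, and the stretch belongs to 1 of them.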

How the data were processed

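Total RNA was prepared with TRIzol and amplified into biotin-labelled cRNA, per the labels' protocols. The authors deposited 1 linear signal intensity for each probe set and array. The submitters' processing notes name GCOS 1.4, with no settings. Both arrays had a mean of 1000.0 after trimming 2% at each end, so the authors' values were already scaled to a common target. Probe sets were named where the platform annotation gives 1 symbol (34958 of 45101), updated by gene identifier to RefSeq. Another 932 had several symbols and 64 were controls. Ratios, counts and medians were computed in Python 3.11.15 with pandas 2.3.3 and checked on simulated arrays. The number of arrays limits the precision. Probe sets with names ending in _s_at or _x_at are called able to share signal.

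Members, roles and gene lists were chosen with earlier results of these data known. The rule named members past 2-fold, the highest signal and the highest and lowest ratio of each role, and genes whose probe sets differed by more than 1 on the log2 scale, and the remaining members were added so that each is accounted for. List genes under 2-fold were named after their values were seen. Other settings tried were centring on the median, quantile normalization, loess (span 0.3), floors at the 25th and 60th percentile and no floor with a pseudocount of 100. Further settings were the mean of probe sets, no shared-sequence probe sets and a size of 1.5-fold. The mean was taken over log2 signals of all probe sets of a gene, measured or not, before the floor was applied.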

Additional observations from a re-analysis of the deposited data

How the results depend on the processing

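The number of translation factor genes at least 2-fold lower was 3 in the deposited values, 7 after median centring, 1 after quantile and 1 after loess normalization, 0 with the mean of probe sets and 17 at a size of 1.5-fold. It was 3 with either other floor and 2 with no floor or without probe sets of shared sequence, not always of the same genes. The number at least 2-fold higher was 0, and 1 with no floor (Gspt2), 1 with the mean of probe sets (Eef2k), 1 without probe sets of shared sequence (Eif4h) and 2 at 1.5-fold. Their median log2 ratio of -0.39 was -0.55 after median centring, -0.19 after quantile and -0.19 after loess normalization and -0.28 with the mean of probe sets, and below 0 in all 9 settings that give a ratio. Of the 54 genes, 27 were below 0 and 4 above 0 in every such setting run for them. For all genes, the counts 2-fold lower and higher, 608 and 779, became 927 and 566 after median centring, 2233 and 2682 with the lower floor and 1946 and 2311 with no floor. The cause of these changes was not tested. No paired analysis was possible because there is 1 array for each genotype, and for the same reason no array could be left out. Signals near the floor limit what can be said of Eef1a2, Eif5a2 and the 4 genes below it.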

Other observations

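Several translation factors were read by probe sets outside the members. Probe sets assigned to Eif3j1 and Eif3j2 together, near-identical genes for the loosely bound eIF3 subunit, read 6141 (knockout) and 11399.5 (wild type), a log2 ratio of -0.89, and 2927 and 5572, or -0.93, with another at -0.15. The Eef1g probe set, shared with Gm29753, read 32629 and 39280.0, a ratio of -0.27, so this subunit of the exchange factor for eEF1A lay on the same side as Eef1b2 and Eef1d. Eif4a3, the helicase of the exon junction complex, had its own probe set below the floor on both arrays, while one shared with Gm5576 read 9846 and 13494, a ratio of -0.45. The probe set shared by Ankhd1 and Eif4ebp3 read 3412 and 2192, or 0.64.

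The genes left out by rule went apart. Eif2s3y, the Y-linked gene for the gamma subunit of eIF2, read 46.8 against 1433 in the wild type, at least 3.64-fold lower. Its X-linked counterpart Eif2s3x had ratios of 0.46, 0.24 and 0.12 by its 3 probe sets. Eif2ak2, the double-stranded RNA sensor PKR, read 2508 and 1582, a log2 ratio of 0.67, with other probe sets at -0.50 and 0.22.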
